A study of Mus musculus with 49 samples.

Results

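RNA polymerases I, II and III and the factors that bring them to their genes were followed in single late 2-cell mouse embryos that had lost TBP or FOXJ3. The set holds 41 protein-coding genes of the 54838 genes counted: every gene whose symbol begins with Polr1, Polr2 or Polr3 and a letter, or with Gtf3, together with *Brf1*, *Brf2*, *Bdp1*, *Maf1*, *Rrn3* and *Ubtf*. Upon TBP LOF, transcripts of 33 of the 41 genes fell and 0 rose when embryos were compared by their spike-in RNA, where 29.8% of all genes tested were lower. With TMM scaling, by the reads of the genes themselves, 25 were lower and 1 was higher, against 12.9% and 13.2% of all genes tested. Upon FOXJ3 LOF, 0 of the 41 passed the same threshold.

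RNA polymerase I makes the large ribosomal RNA precursor, RNA polymerase II makes messenger RNA, and RNA polymerase III makes transfer RNA, 5S ribosomal RNA and other short RNAs. The 3 enzymes share some subunits, and each has others of its own. TBP, the TATA-binding protein, takes part in initiation by all of them, within SL1 for polymerase I, TFIID for polymerase II and TFIIIB for polymerase III. The late 2-cell stage is when the mouse embryo begins most of its own transcription, while RNA stored in the egg is being cleared.

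Embryos of F1(C57BL/6JxCBA/H) genotype received an antibody as zygotes and, after 4 h of culture, mRNA for mCherry-Trim21, a ubiquitin ligase that destroys antibody-bound protein (Trim-Away). TBP LOF embryos received anti-TBP antibody and their CONTROL mouse IgG, FOXJ3 LOF embryos received anti-FOXJ3 antibody and their CONTROL rabbit IgG, so that every group, CONTROL included, carried Trim21 mRNA. Single embryos were lysed 48 h after hCG, and the reads of transcript 5′ ends were counted. After quality control 9 LOF and 9 CONTROL embryos were used for TBP and 16 LOF and 13 CONTROL embryos for FOXJ3, and FOXJ3 libraries were prepared in 2 batches (batch 1: 9 LOF, 7 CONTROL; batch 2: 7 LOF, 6 CONTROL). TBP and FOXJ3 embryos were both collected on several occasions that the labels do not tie to single embryos. The p-values therefore measure the spread between embryos only, which for FOXJ3 is the spread within library batches. Trim-Away removes protein and not mRNA, so no transcript level checks the depletion.

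Counted reads per embryo lay between 1103569 and 5434808, and 40 of the 41 genes had a read in each of the 47 embryos. The exception, *Polr3gl*, had a read in 38. Markers of cumulus cells summed to at most 23.3 CPM (reads scaled to a common library total) in any embryo, and *Has2*, *Ptx3*, *Inhba* and *Cd44* were at 0 in the TBP experiment. There *Tnfaip6* had medians of 0.513 CPM in LOF and 2.01 CPM in CONTROL embryos, and reached 3.02 and 23.3 CPM. *Ptgs2* had a median of 0 in both groups and reached 0.554 and 2.81 CPM. Blastocyst markers summed to at most 9.97 CPM. The 7 late 2-cell markers summed to between 306 and 1069 CPM in TBP LOF and between 99.2 and 533 CPM in TBP CONTROL embryos, where *Gm6763* was at 0, and between 98.2 and 907 CPM over both FOXJ3 groups. The 5 oocyte markers summed to between 1741 and 3182 CPM in TBP LOF against 748 to 2270 CPM in TBP CONTROL embryos. The median was higher in TBP LOF than in CONTROL embryos for 5 of the 7 late 2-cell markers and 4 of the 5 oocyte markers. These levels are shares of counted reads and are not scaled by spike-ins, so a higher CPM need not mean more RNA per embryo. *Tcstv3* (540.4 and 82.8 CPM) and *Oosp1* (1613 and 979 CPM) made up most of the sums in TBP LOF, and the median was lower for *Zscan4c* (4.31 and 6.26 CPM) and *Zp3* (18.5 and 39.9 CPM). Spike-in reads took 4.29% ± 1.19 (SD, n = 9) of TBP LOF libraries against 2.76% ± 0.372 (SD, n = 9) of CONTROL, and Trim21 reads 1269 ± 898 against 809 ± 407 CPM. The part of these differences in the results for TBP was not tested, apart from a fit with the Trim21 level as a covariate. In that fit 33 of the 41 were lower, as were 5565 of all 18447 genes tested.

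In CONTROL embryos, small and shared subunits were among the most abundant of the set. Undivided, the median of *Polr2j*, *Polr2f*, *Polr2c* and *Polr2l* was 496, 471, 432 and 427 CPM in TBP CONTROL and 521, 541, 689 and 452 CPM in FOXJ3 CONTROL embryos, so that *Polr2j* came before the others in the first and *Polr2c* in the second. The levels below are divided by exon length in kilobases, which sets the order of these 4 genes and favours short ones, since the number of 5′ reads does not grow with length. On that scale *Polr2j*, a small subunit of polymerase II, led with 449 CPM per kb in TBP CONTROL and 471 in FOXJ3 CONTROL embryos. *Polr2l* (259 and 274) and *Polr2f* (182 and 208), which encode subunits common to the 3 enzymes, followed in that order in both, although *Polr2f* had more undivided reads than *Polr2l*. The catalytic subunits lay far below these, with 3.84 CPM per kb for *Polr2a*, 2.86 for *Polr1a* and 11.98 for *Polr3a* in TBP CONTROL embryos. Undivided, they had 27.2, 34.0 and 69.8 CPM, a smaller distance from the 496 of *Polr2j*. *Polr3gl*, which encodes the alternative to the *Polr3g* product, was last in both at 1.08 and 0.743 CPM per kb, against 9.33 and 11.5 for *Polr3g*, and undivided at 1.72 and 1.18 CPM against 36.7 and 45.1. Neighbours in this order were mostly close: *Polr2k* and *Polr2d* stood at 146 and 145 CPM per kb in TBP CONTROL embryos and changed places in FOXJ3 CONTROL embryos. In TBP LOF embryos *Polr2j*, *Polr2l* and *Polr2f* were still the top of this order, while *Polr2h* went from place 6 in TBP CONTROL to 14 in TBP LOF per kb, and from 10 to 23 undivided.

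**Figure D1:**
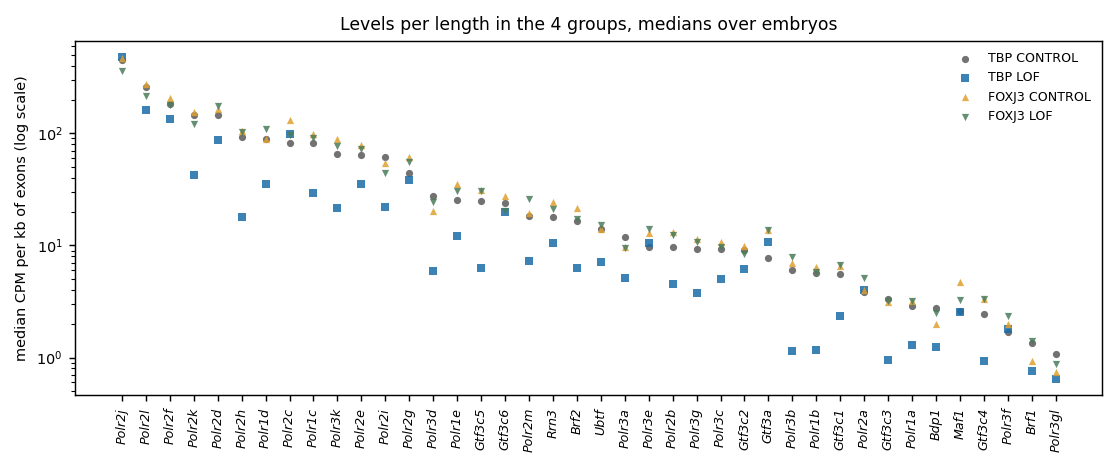
Median level of 40 of the genes per kilobase of exons (y axis, CPM per kb, log scale) in TBP CONTROL, TBP LOF, FOXJ3 CONTROL and FOXJ3 LOF embryos, in the order of TBP CONTROL (x axis). *Polr2j* is first and *Polr3gl* last in all 4 groups, and most TBP LOF squares sit below the other symbols, whereas others, such as those of *Polr2j*, *Polr2c* and *Polr2a*, do not.

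The TBP comparison asks which genes change at the onset of embryonic transcription when TBP protein is removed. The fall of the polymerase genes was wide: 33 of 41 were lower at an adjusted p under 0.05 (edgeR quasi-likelihood test with Benjamini-Hochberg adjustment over all genes and transposable element families), each at 13.7% to 47.5% of its CONTROL level, and all 41 estimates were below 0. Among all 18447 genes tested, 29.8% were lower, and among protein-coding genes with a mean scaled count of at least 10, as 40 of the 41 had, 49.8% were lower. The median log2 fold change was -1.66 for the 41 genes, -0.70 for all genes and -0.92 for those protein-coding genes. These shares and medians are also the background of the counts by role given below. In 16 of the 41 genes every LOF embryo was below every CONTROL embryo, which was so for 6.96% of all genes tested. That share, and those under TMM, were not taken for those protein-coding genes alone.

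These values rest on the spike-ins, which set each embryo against a fixed amount of added RNA. Each library is 1 embryo, so fewer cells and less RNA per cell cannot be told apart. Under TMM scaling, which assumes that most genes hold their share, 25 of the 41 were lower and 1 was higher (12.9% and 13.2% of all genes tested were lower and higher), and the median was -0.83 against 0.13 for all genes. Under TMM 34 of the 41 were below 0, and *Polr2a*, *Polr2c*, *Polr2j*, *Polr3e*, *Polr3f*, *Gtf3a* and *Maf1* were above it. The polymerase genes took 0.409% ± 0.0762 (SD, n = 9) of gene reads in TBP LOF and 0.645% ± 0.0728 (SD, n = 9) in TBP CONTROL embryos.

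**Figure D2:**
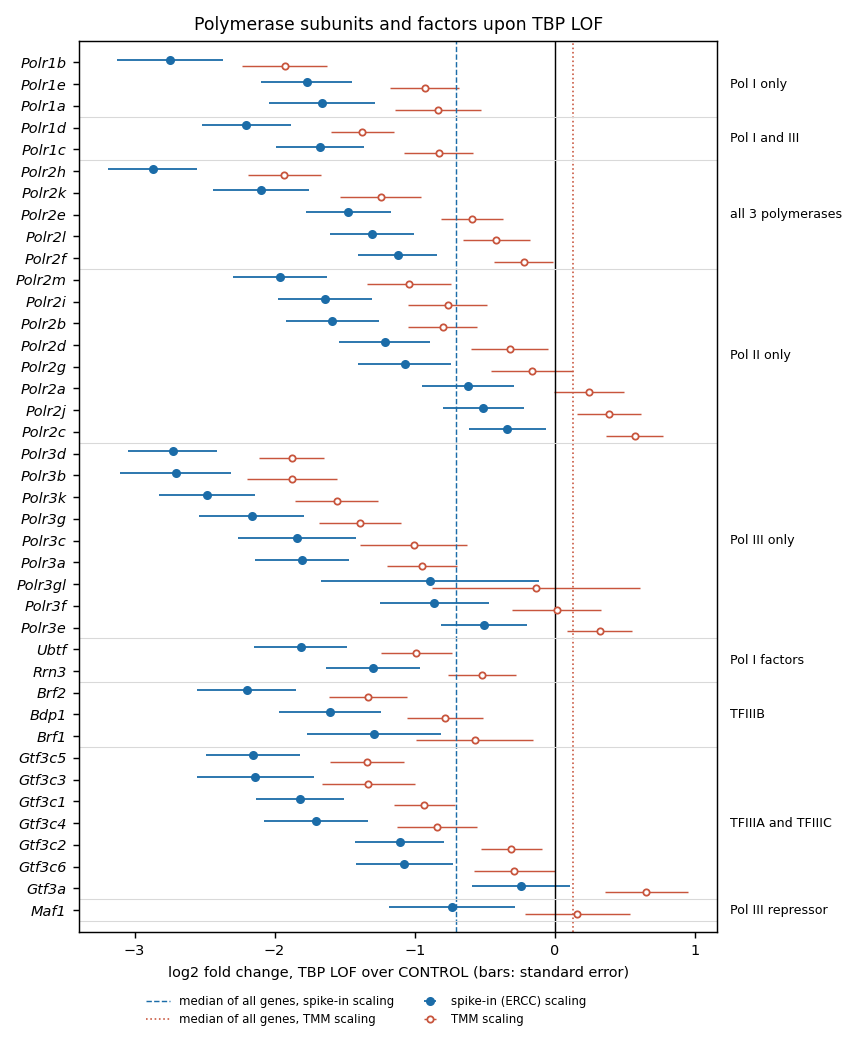
Log2 fold change of TBP LOF over CONTROL (x axis, bars are standard errors) for 40 of the genes grouped by role (y axis), with spike-in scaling (filled) and TMM scaling (open) and the median of all genes under each (dashed and dotted lines). With spike-ins all 40 points lie below 0, and 7 of them lie above 0 under TMM.

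Polymerase I lost transcripts of all 3 subunits counted here as its own, and of both that it shares with polymerase III. *Polr1b*, the second-largest subunit, ran from 2.46 over a median of 11.7 to 31.4 scaled counts (reads divided by the embryo's spike-in size factor) in LOF embryos, and from 58.0 over 74.2 to 130.3 in CONTROL embryos. The groups did not overlap (log2 fold change -2.75 with a standard error of 0.38, adjusted p = 9.99e-08, edgeR; the same form is used for the other genes). *Polr1a*, the largest subunit, ran from 2.30 over 21.4 to 64.0 in LOF and from 46.1 over 71.3 to 142 in CONTROL embryos. Here the LOF values reached into the CONTROL range, and the log2 fold change was -1.66 ± 0.38 (adjusted p = 0.000428, edgeR). *Polr1e* fell by 1.77 on the log2 scale. *Polr1d*, a subunit of the assembly platform of polymerases I and III, ran from 65.2 over 132 to 279 in LOF and from 432 over 605 to 1342 in CONTROL embryos, without overlap (log2 fold change -2.20 ± 0.32, adjusted p = 2.34e-07, edgeR). *Polr1c*, its partner in that platform, fell by 1.68, and its groups did not overlap either.

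The initiation factors of polymerase I fell as well. *Ubtf*, which encodes the ribosomal DNA-binding factor UBF, ran from 12.3 over 72.4 to 117 scaled counts in LOF and from 113 over 224 to 436 in CONTROL embryos, so that the groups met only at their edges (log2 fold change -1.81 ± 0.33, adjusted p = 1.78e-05, edgeR). *Rrn3*, which encodes TIF-IA and links polymerase I to SL1, ran from 24.2 over 54.1 to 175 in LOF and from 111 over 174 to 332 in CONTROL embryos. It lay under the CONTROL median in 8 LOF embryos (log2 fold change -1.30 ± 0.33, adjusted p = 0.0016, edgeR), a call that was not made under TMM (-0.52, adjusted p = 0.116, edgeR).

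All 5 subunits common to the 3 polymerases fell, with a median log2 fold change of -1.47. *Polr2h* had the smallest p of the set. It ran from 23.2 over 42.9 to 87.7 scaled counts in LOF embryos and from 238 over 356 to 604 in CONTROL embryos. The groups stood well apart, and the log2 fold change was -2.87 ± 0.32 (adjusted p = 1.02e-09, edgeR). *Polr2k* and *Polr2e* fell by 2.10 and 1.47 on the log2 scale without overlap between groups. *Polr2l* and *Polr2f*, the abundant pair named above, fell by 1.31 and 1.12 on that scale, and neither passed under TMM (-0.42 and -0.22).

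Of the 8 subunits and associated proteins that serve polymerase II alone 5 fell, with a median log2 fold change of -1.14, and its 2 largest subunits differed. Of all genes tested 29.8% were lower, and of well-expressed protein-coding genes 49.8%, with a median of -0.92, so these values lie near that background. *Polr2a*, the catalytic subunit that carries the C-terminal domain, ran from 12.3 over 38.1 to 63.2 scaled counts in LOF and from 31.2 over 53.3 to 92.0 in CONTROL embryos. The groups overlapped broadly, and the log2 fold change of -0.62 ± 0.33 did not pass (adjusted p = 0.157, edgeR). *Polr2b*, the second-largest subunit and its partner at the active site, ran from 7.48 over 33.4 to 68.0 in LOF and from 69.1 over 116 to 158 in CONTROL embryos. No LOF embryo reached the CONTROL range (log2 fold change -1.59 ± 0.33, adjusted p = 0.000134, edgeR). *Polr2m*, which encodes the polymerase-associated protein GDOWN1, fell by 1.96 and *Polr2i* by 1.64 on the log2 scale, *Polr2d* by 1.21 and *Polr2g* by 1.07, the last pair forming the stalk of the enzyme. Under TMM neither of this pair passed (-0.32 and -0.16, adjusted p = 0.410 and 0.720, edgeR), so that 3 of the 8 were lower. *Polr2c* and *Polr2j*, partners in the assembly platform of polymerase II, did not pass, with log2 fold changes of -0.34 ± 0.28 and -0.51 ± 0.29. *Polr2c* is also the only gene of the set called higher under TMM (0.57, adjusted p = 0.035, edgeR).

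Of the 10 genes that serve polymerase III alone, 7 fell, with a median log2 fold change of -1.84. Lower calls were made for 29.8% of all genes tested and 49.8% of well-expressed protein-coding genes, the latter with a median of -0.92. *Polr3d* ran from 14.9 over 27.6 to 58.2 scaled counts in LOF and from 123 over 207 to 242 in CONTROL embryos, without overlap (log2 fold change -2.73 ± 0.32, adjusted p = 2.90e-09, edgeR). *Polr3b*, the second-largest subunit, ran from 2.93 over 6.76 to 32.6 in LOF and from 58.3 over 71.8 to 136 in CONTROL embryos, again without overlap (-2.71 ± 0.39, adjusted p = 2.73e-07, edgeR). *Polr3k*, a small subunit that takes part in termination, ran from 40.2 over 72.0 to 298 in LOF and from 251 over 482 to 959 in CONTROL embryos. Its highest LOF embryo lay within the CONTROL range (-2.48 ± 0.34, adjusted p = 1.00e-07, edgeR). *Polr3a*, the catalytic subunit, ran from 13.9 over 36.3 to 83.9 in LOF and from 105 over 136 to 267 in CONTROL embryos, without overlap (-1.80 ± 0.33, adjusted p = 1.98e-05, edgeR).

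*Polr3g* and *Polr3gl* encode alternative forms of 1 subunit. *Polr3g* ran from 4.10 over 23.2 to 54.0 scaled counts in LOF and from 33.3 over 98.9 to 196 in CONTROL embryos (log2 fold change -2.16 ± 0.38, adjusted p = 7.10e-06, edgeR). The groups shared a narrow range. *Polr3gl* ran from 0.483 over 1.64 to 7.24 in LOF and from 0 over 3.37 to 16.1 in CONTROL embryos, with 56 reads in all 18 embryos together, so that a difference was not detectable at this depth (-0.89 ± 0.78, adjusted p = 0.428, edgeR). *Polr3c* fell by 1.84 on the log2 scale. *Polr3e* and *Polr3f* did not pass, with log2 fold changes of -0.51 ± 0.31 and -0.86 ± 0.39.

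**Figure D3:**
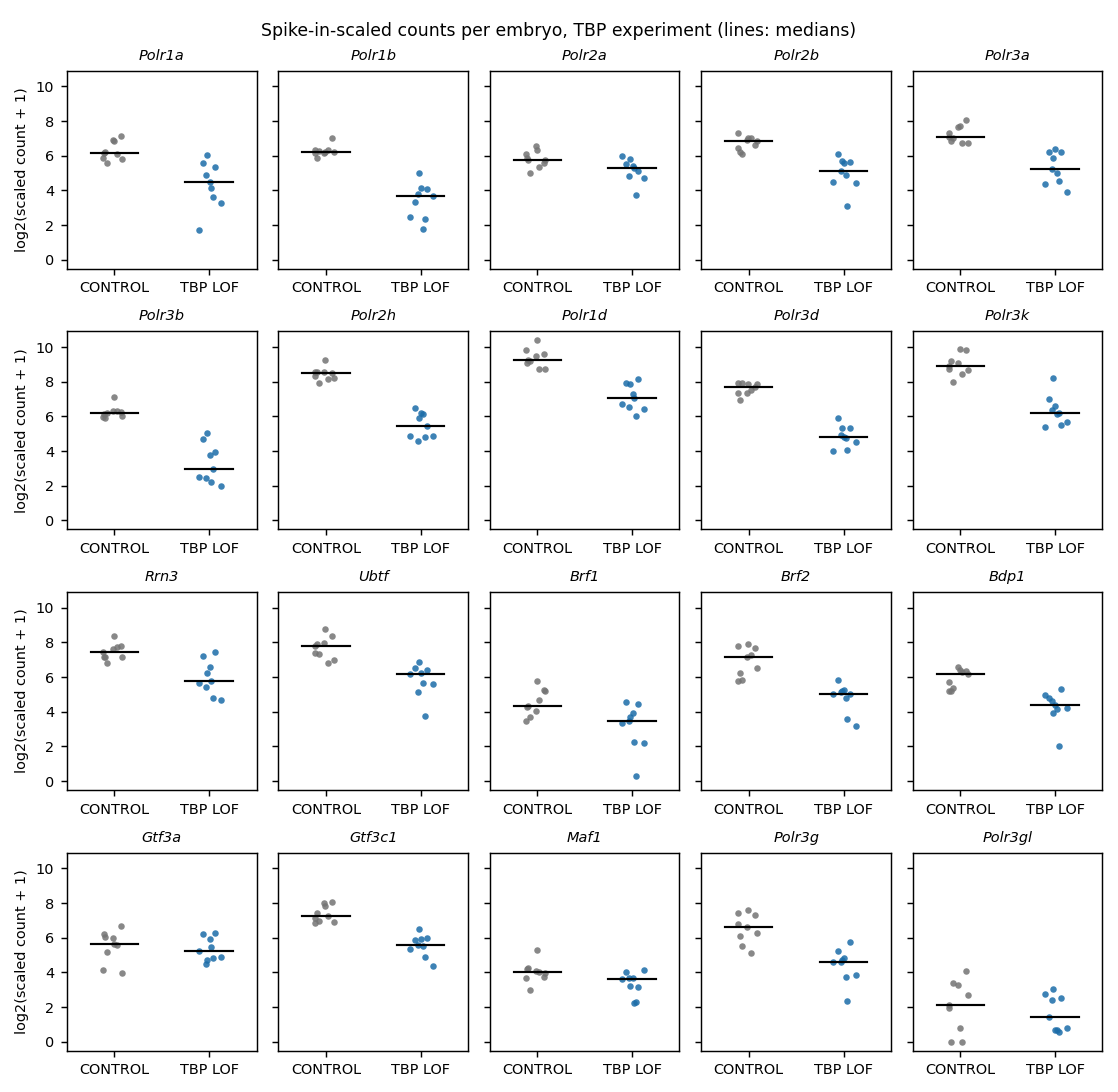
Spike-in-scaled counts of 20 genes in each of 9 CONTROL (grey) and 9 TBP LOF (blue) embryos (y axis, log2 of the scaled count plus 1, lines are medians). LOF embryos sit below all CONTROL embryos for *Polr1b*, *Polr1d*, *Polr2b*, *Polr2h*, *Polr3a*, *Polr3b*, *Polr3d* and *Gtf3c1*, and among them for *Polr2a*, *Gtf3a* and *Maf1*.

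All 3 genes of TFIIIB counted here, the factor in which TBP itself sits on polymerase III genes, fell with spike-in scaling, and 2 of them under TMM. *Brf2*, the form used at U6-type promoters, ran from 8.06 over 31.8 to 54.9 scaled counts in LOF and from 54.2 over 142 to 237 in CONTROL embryos (log2 fold change -2.20 ± 0.35, adjusted p = 1.76e-06, edgeR). *Bdp1*, common to both forms of TFIIIB, ran from 3.14 over 19.6 to 38.1 in LOF and from 35.3 over 72.2 to 93.7 in CONTROL embryos (-1.61 ± 0.36, adjusted p = 0.000358, edgeR). In both genes the ranges touched only at their ends. *Brf1*, the form used at transfer RNA and 5S genes, was low, from 0.241 over 10.2 to 22.9 in LOF and from 10.1 over 19.3 to 54.2 in CONTROL embryos. Of the LOF embryos 7 of 9 had less than the CONTROL median, and its call was close to the threshold (-1.29 ± 0.48, adjusted p = 0.032, edgeR). It was not made under TMM (-0.57, adjusted p = 0.332, edgeR). Nor was it made in 5 of the 18 fits that left out 1 embryo, namely those without LOF embryo 7 (adjusted p = 0.0635), LOF embryo 9 (0.0596), CONTROL embryo 3 (0.0586), CONTROL embryo 8 (0.105) or CONTROL embryo 10 (0.0602).

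TFIIIC, which binds the internal promoters of transfer RNA genes, is encoded by *Gtf3c1* to *Gtf3c6*, and all 6 fell. *Gtf3c1*, its largest subunit, ran from 19.8 over 46.5 to 88.1 scaled counts in LOF and from 115 over 155 to 266 in CONTROL embryos, without overlap (log2 fold change -1.82 ± 0.31, adjusted p = 5.34e-06, edgeR). *Gtf3c5*, *Gtf3c3* and *Gtf3c4* decreased by 2.15, dropped by 2.14 and fell by 1.70 on the log2 scale, also without overlap. *Gtf3c2* and *Gtf3c6* fell by 1.11 and 1.07 on that scale, and neither passed under TMM.

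*Gtf3a*, which encodes TFIIIA, the factor specific to 5S genes, stood apart from the TFIIIC genes. It ran from 21.8 over 36.8 to 77.8 scaled counts in LOF and from 14.4 over 49.7 to 101 in CONTROL embryos, so that the groups overlapped almost fully (log2 fold change -0.24 ± 0.35, adjusted p = 0.661, edgeR). *Maf1*, the repressor of polymerase III, ran from 3.69 over 11.5 to 16.8 in LOF and from 6.77 over 14.96 to 37.8 in CONTROL embryos and did not pass either (-0.73 ± 0.45, adjusted p = 0.229, edgeR). Both estimates were above 0 under TMM, at 0.65 and 0.16.

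Ratios of 2 genes within an embryo need no scaling between embryos. They were taken for 5 pairs in both experiments as the log2 of reads, with 0.5 added to each count, and adjusted over all 10 ratios. Where a gene has few reads, the added 0.5 makes the ratio depend on library depth. The ratio of *Polr2a* to *Polr2b* ran from -1.66 over -1.03 to -0.34 in TBP CONTROL embryos and from -0.59 over 0.13 to 1.51 in TBP LOF embryos. It was above the CONTROL median in 9 of 9 LOF embryos, and the means were 0.16 ± 0.67 and -0.92 ± 0.48 (SD, n = 9 each), a difference of 1.08 (exact two-sided permutation test, p = 0.000864, adjusted p = 0.00864). The ratio of *Polr3a* to *Polr3b* ran from 0.39 over 0.96 to 1.82 in CONTROL and from 0.79 over 2.12 to 2.99 in LOF embryos. Its mean rose from 1.01 ± 0.42 to 2.10 ± 0.71 (SD, n = 9 each), by 1.09 and 8 of 9 LOF embryos lay above the CONTROL median (p = 0.00181, adjusted p = 0.00905, exact two-sided permutation test).

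The other 3 ratios did not pass in the TBP experiment. *Polr1a* over *Polr1b* had a mean of 0.99 ± 1.14 in LOF and 0.00374 ± 0.51 in CONTROL embryos (SD, n = 9 each), with 7 of 9 LOF embryos above the CONTROL median (exact two-sided permutation test, p = 0.0316, adjusted p = 0.0865). *Polr3g* over *Polr3gl* had means of 3.16 ± 1.08 and 4.91 ± 2.10 and all 9 LOF embryos had less than the CONTROL median (exact permutation test, p = 0.0384, adjusted p = 0.0865), with few *Polr3gl* reads behind it. CONTROL embryos 4 and 9 both had 0 *Polr3gl* reads, and their ratios were 5.36 and 8.64 at 1423256 and 5434808 counted reads. The part of depth in this difference was not tested. *Brf1* over *Brf2* had means of -1.88 ± 1.29 and -2.40 ± 0.91 (exact permutation test, p = 0.353, adjusted p = 0.504).

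**Figure D4:**
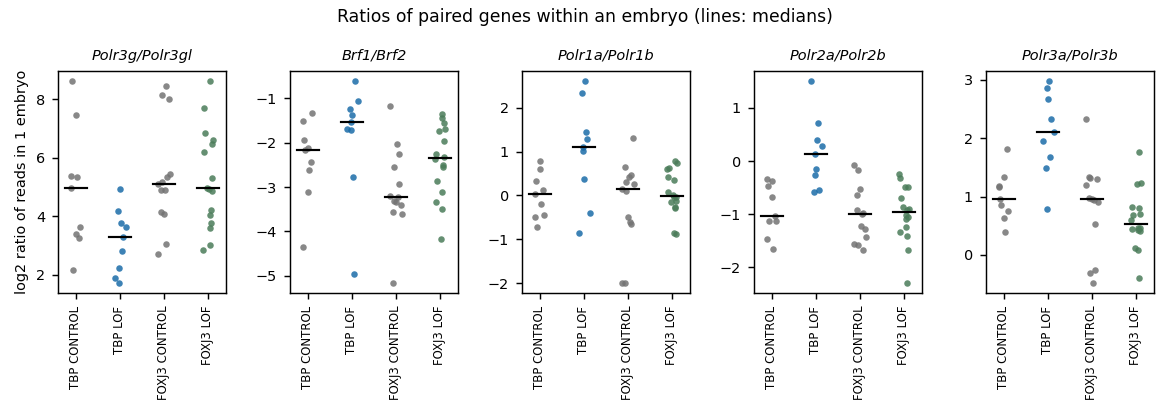
Log2 ratio of the reads of 2 genes in each embryo (y axis) for 5 pairs in TBP CONTROL, TBP LOF, FOXJ3 CONTROL and FOXJ3 LOF embryos (lines are medians). For *Polr2a* over *Polr2b* all 9 TBP LOF embryos lie above the TBP CONTROL median of -1.03, while both FOXJ3 groups have medians of -0.99 and -0.96.

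Promoter sequences of RefSeq on GRCm38.p6, from 250 bases before to 50 bases after the annotated start, were matched to 32 of the 41 genes. For genes of the set with several starts the one nearest the gene's annotated 5′ end was taken. The TATA-box letters TATAAA were searched on both strands, and also on the gene's own strand with the first letter between 40 and 20 bases before the start. At that place they stood in 1 of the 32 promoters, that of *Polr2a*, against 1.99% of all 32851 promoters in the table and 0.795% of those of the well-expressed protein-coding genes described above (mean scaled count of at least 10). That class held 7736 genes and 7794 promoters, so some of its genes counted more than once. On either strand of the whole window they stood in 3 of 32 (*Polr2a*, *Polr2c* and *Gtf3c6*), or 9.38%, against 13.6% of all promoters and 6.56% of those of well-expressed genes, so that the share lay between these. The letters CCGGAAG, typical of sites for ETS factors, cannot overlap TATAAA, though the promoters of *Polr2c* and *Gtf3c6* held both motifs. They stood in 13 of 32 promoters on either strand, against 8.86% of all promoters and 20.3% of those of well-expressed genes. Among the 25 promoters of genes that fell upon TBP LOF 10 held CCGGAAG, and among the 7 of genes that did not pass 3 did. These 3 were *Gtf3a*, *Polr2c* and *Polr2j*, where the letters begin 25 and 17 bases after and 19 bases before the start. The median GC content was 60.5% for the 32 promoters and 52.7% for all. A match describes the letters only.

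The windows from 60 bases before to 30 bases from the start are shown for *Polr2a*, the gene with the TATA-box letters, whose fall did not pass, for the 5 genes with the lowest log2 fold changes among those matched, and for *Polr3g* as a further gene with CCGGAAG near the start. They lie at chr11:69758604-69758693 on the minus strand for *Polr2a*, chr10:84622238-84622327 on the plus strand for *Polr3b*, chr13:81710984-81711073 on the minus strand for *Polr3g*, chr16:20717766-20717855 on the plus strand for *Polr2h*, and on the plus strand at chr2:129100936-129101025 for *Polr1b*, chr2:181864300-181864389 for *Polr3k* and chr5:147077286-147077375 for *Polr1d*. Each is written 5′ to 3′ on the gene's strand, with TATAAA, or CCGGAAG read on the opposite strand, in capitals.
Polr2a: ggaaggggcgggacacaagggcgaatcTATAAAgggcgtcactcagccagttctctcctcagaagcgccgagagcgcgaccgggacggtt
Polr3b: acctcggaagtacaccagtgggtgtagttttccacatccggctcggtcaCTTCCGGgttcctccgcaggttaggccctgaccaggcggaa
Polr3g: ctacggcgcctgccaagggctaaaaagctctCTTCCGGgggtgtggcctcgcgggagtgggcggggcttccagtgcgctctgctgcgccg
Polr2h: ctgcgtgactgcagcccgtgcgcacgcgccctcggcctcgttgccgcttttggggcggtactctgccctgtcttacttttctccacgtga
Polr1b: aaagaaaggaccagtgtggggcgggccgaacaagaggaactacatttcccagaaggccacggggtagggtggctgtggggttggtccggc
Polr3k: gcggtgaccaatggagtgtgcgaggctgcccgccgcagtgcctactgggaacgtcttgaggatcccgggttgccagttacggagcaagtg
Polr1d: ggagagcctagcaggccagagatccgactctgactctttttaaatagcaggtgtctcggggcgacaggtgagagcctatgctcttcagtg
The letters begin 33 bases before the start in *Polr2a*, 11 before it in *Polr3b* and 29 before it in *Polr3g*. Neither motif was found in the 300 bases of the *Polr2h*, *Polr1b*, *Polr3k* and *Polr1d* promoters, whose log2 fold changes were -2.87, -2.75, -2.48 and -2.20.

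Other genes of the same machinery, outside the rule for the 41, fell too: 19 of 22 were lower and 0 higher with spike-ins, and 13 lower and 1 higher under TMM. Of all genes tested 29.8% were lower with spike-ins, or 49.8% of well-expressed protein-coding genes, and 12.9% were lower and 13.2% higher under TMM. The remaining subunits *Znrd1* and *Twistnb* of polymerase I fell by 3.05 and 2.68 on the log2 scale, and *Cd3eap* of polymerase I and *Crcp* of polymerase III had log2 fold changes of -1.31 and -1.42 and were lower. All 4 TAF subunits of SL1 fell (*Taf1c* had a log2 fold change of -3.46), and so did all 5 subunits of SNAPc, the factor of small nuclear RNA genes, *Snapc5* with a log2 fold change of -2.60. *Ttf1*, which ends polymerase I transcription, fell by 1.43. *Cd3eap*, *Crcp* and *Ttf1* did not pass under TMM. Among 8 assembly and import factors 5 fell with spike-in scaling, led by *Rpap3* at 2.23, and 2 of these, *Rpap3* and *Gpn3*, also under TMM. *Gpn2* stood at 0.03 ± 0.30 with spike-ins and at 0.96 (adjusted p = 0.00233, edgeR) under TMM, where it was called higher. *Tbp* mRNA itself ran from 6.59 over 83.3 to 151 scaled counts in LOF and from 195 over 280 to 672 in CONTROL embryos (-2.14 ± 0.37, adjusted p = 5.28e-06, edgeR).

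RNAs that polymerase III makes could hardly be read in these libraries, which were primed on poly(A). Of 190 such genes counted, 7 had reads enough to be tested, and 0 passed in either direction. *Rn7s1*, the RNA of the signal recognition particle, had the most reads, and ran from 9.02 over 40.2 to 98.5 scaled counts in LOF and from 20.8 over 69.1 to 149 in CONTROL embryos (log2 fold change -0.55 ± 0.39, adjusted p = 0.305, edgeR). These values give no reading of polymerase III output.

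Upon FOXJ3 LOF the polymerase genes did not pass in either direction. FOXJ3 is a forkhead factor, and the comparison was fitted with TMM scaling and library batch as a covariate. Of the 41 genes 0 were called by edgeR, 0 by DESeq2 and 2 had an unadjusted p under 0.05, which 5.68% of all genes tested had. Of all 18626 genes 2 were called, or 0.0107%. Log2 fold changes ran from -0.30 to 0.50 with a median of 0.09, against -0.03 for all genes, and 23 of the 41 were above 0. The median standard error was 0.19, and it was 0.61 for *Polr3gl*. *Bdp1* at 0.50 ± 0.21 did not pass (adjusted p = 0.808, edgeR), so differences well above a standard error could be missed with these embryos.

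The genes with the smallest p upon FOXJ3 LOF were *Bdp1*, *Polr2m* and *Polr1d* above 0 and *Polr2j*, *Polr2c* and *Polr2l* below it. *Bdp1* ran from 34.2 over 61.8 to 141 scaled counts (here scaled by TMM) in LOF and from 21.9 over 45.5 to 70.6 in CONTROL embryos, and was above the CONTROL median in 12 of 16 LOF embryos (log2 fold change 0.50 ± 0.21, adjusted p = 0.808, edgeR). *Polr2m* ran from 36.9 over 139 to 186 in LOF and from 21.9 over 87.8 to 177 in CONTROL embryos (0.48 ± 0.22, adjusted p = 0.858, edgeR). *Polr1d* ran from 366 over 700.4 to 1222 in LOF and from 386 over 569 to 940.5 in CONTROL embryos (0.29 ± 0.15, adjusted p = 0.888, edgeR). The groups overlapped in all 3 genes.

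*Polr2j* ran from 629 over 883 to 1342 scaled counts in FOXJ3 LOF and from 623 over 1095 to 1379 in CONTROL embryos, and its log2 fold change was -0.21 ± 0.14. *Polr2c* ran from 869.7 over 1176 to 2189.8 and from 1057 over 1419 to 2328 (-0.21 ± 0.14), and *Polr2l* from 508 over 716 to 1304 and from 488 over 940.1 to 1623 (-0.23 ± 0.16). Each of these had an adjusted p of 0.915 (edgeR), and the groups overlapped.

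The largest subunits and the initiation factors overlapped between the FOXJ3 groups. Of the 13 CONTROL embryos, embryos 3 and 2 of batch 1 held the lowest value for 25 and 5 of the 41 genes. *Polr3b* stood at 5.47 and 17.9 scaled counts in these, against 56.2 to 135 in the other 11 CONTROL embryos and 57.7 to 109 in LOF embryos, and *Gtf3c1* at 35.0 and 69.7, against 94.4 to 211 and 115 to 234. They were not low throughout: both lay above the other 11 for *Gtf3c4* (66.7 and 81.7 against at most 58.6) and *Polr3f* (58.0 and 50.8 against at most 50.1). Embryo 3 was also the highest CONTROL embryo for *Polr2c* (2328) and *Polr2j* (1379). Without both embryos, left out after their values were seen, 0 of the 41 passed again, and 4 had an unadjusted p under 0.05, as did 1184 of all 18766 genes tested then. The median log2 fold change of the 41 was -0.05 (all genes 0.0059), and 23 of the 41 were below 0, against 18 with all embryos. Leaving out CONTROL embryos that were low for many of these genes lowers such estimates by itself. Of the genes named for their role, *Polr1a*, *Ubtf* and *Gtf3a* turned to below 0. *Polr2a* had medians of 68.8 scaled counts in LOF and 54.4 in CONTROL embryos, *Polr2b* of 130.3 and 127, *Polr1a* of 79.5 and 77.1, and *Polr1b* of 76.2 and 70.8. *Polr3a* had medians of 128 and 117, *Polr3b* of 86.0 and 68.3, *Polr3g* of 96.4 and 97.6 and *Polr3gl* of 3.25 and 2.49. *Rrn3* stood at 195 and 202, *Ubtf* at 200.1 and 190.0, *Gtf3c1* at 170 and 156, and *Gtf3a* at 70.7 and 66.9. *Brf1* stood at 22.5 and 15.2, *Brf2* at 121 and 144, and *Maf1* at 15.3 and 21.7. Trim21 reads stood at 514 ± 413 CPM (SD, n = 16) in LOF and 1136 ± 888 CPM (SD, n = 13) in CONTROL embryos, and their part in these values was not tested beyond a fit with Trim21 as a covariate, in which 0 of the 41 passed.

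**Figure D5:**
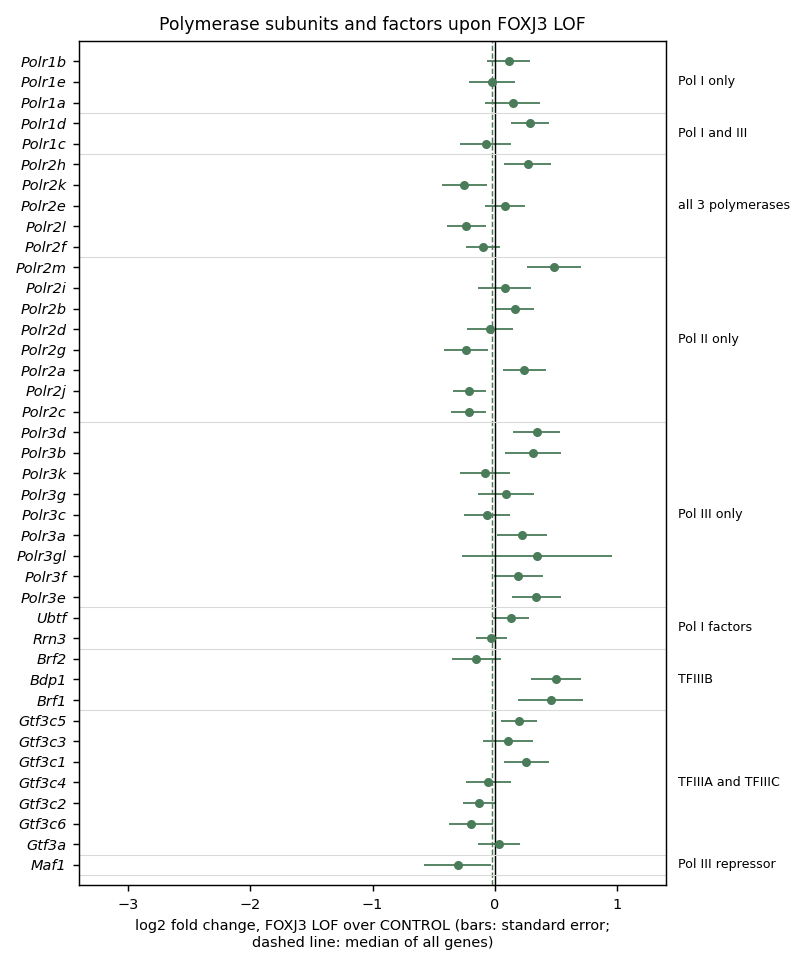
Log2 fold change of FOXJ3 LOF over CONTROL (x axis, bars are standard errors, dashed line is the median of all genes) for 40 of the genes grouped by role, in the same order as for TBP. Points lie between -0.30 and 0.50 on both sides of 0.

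The difference of the FOXJ3 effect between batches was tested with an interaction term, and 0 of the 41 genes passed. An unadjusted p under 0.05 was found for 1 of them, against 8.02% of all genes tested. The 41 had a median difference (batch 2 minus batch 1) of -0.25 and 33 were below 0, against a median of 0.06 for all genes, and the median log2 fold change of the 41 was 0.17 in batch 1 and -0.03 in batch 2. Without CONTROL embryos 2 and 3 of batch 1 the median difference of the 41 was -0.02 with 21 below 0, and 1 had an unadjusted p under 0.05, against 5.1% of all genes tested. As these embryos were picked for low values in these genes, the direction of that shift follows from the choice and does not account for the batch difference. None of the 5 ratios passed in the FOXJ3 experiment. That of *Brf1* to *Brf2* had means of -2.42 ± 0.81 (SD, n = 16) in LOF and -3.06 ± 0.95 (SD, n = 13) in CONTROL embryos, a difference of 0.64 (two-sided permutation test within batches, p = 0.0432, adjusted p = 0.0865). Within batch 1 the difference was 0.37 (exact permutation test, p = 0.467) and within batch 2 it was 1.00 (exact permutation test, p = 0.00758). *Polr2a* over *Polr2b* and *Polr3a* over *Polr3b*, which differed upon TBP LOF, had differences of 0.000713 (permutation test, p = 0.997) and -0.21 (permutation test, p = 0.275). Within batches 1 and 2 these were -0.06 and 0.05 for *Polr2a* over *Polr2b* (exact permutation tests, p = 0.810 and 0.856), and -0.42 and -0.01 for *Polr3a* over *Polr3b* (exact permutation tests, p = 0.0909 and 0.978). *Polr1a* over *Polr1b* and *Polr3g* over *Polr3gl* differed by 0.22 (p = 0.452, permutation) and -0.09 (p = 0.886, permutation), and without the same 2 CONTROL embryos by -0.11 and -0.44. Whether the change of a ratio differs between TBP and FOXJ3 was not tested.

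Overlapping genes limit single values. Of the 41 genes 4 overlap another annotated gene on their own strand and 16 one on the opposite strand, such as *Clcn2* for *Polr2h* and *Igfbp7* for *Polr2b*. The sources used here do not say whether strand was used in counting, so reads of such partners may not be told apart.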

How the data were processed

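RNA of single embryos was read with Smart-seq+5′, and the authors trimmed reads with Trimmomatic, mapped the 5′ reads with STAR 2.7.11a (version as in the submitters' processing notes) to GRCm38 with the mCherry-Trim21 construct added, and counted read 2 per gene (gencode M20) and transposable element family with TEcount. The deposited values are expected counts, here whole numbers of reads, not normalized, so rounding changed none. Reads carry no molecular identifiers, so counts are not independent molecules. The labels gave the groups. Gene counts of the insertion tables, read for 19 embryos, were identical, so the TBP fit with them, listed as an alternative, had to repeat the main fit.

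Embryos needed at least 500000 counted reads and 1000 detected genes, with at most 10% mitochondrial and 15% spike-in reads, and 47 of 49 passed. A gene or family was tested if 25% or more of an experiment's embryos had 1 read or more of it, with edgeR 4.0.16 (two-sided quasi-likelihood test, Benjamini-Hochberg adjustment, threshold 0.05), scaled by the median of ratios of ERCC spike-ins for TBP and by TMM for FOXJ3. The spike-ins and the batch covariate for FOXJ3 follow the Methods, in which DESeq2 was used; edgeR and TMM do not. DESeq2 1.42.0 and its size factors were alternatives. Standard errors were derived from the F statistic. Ratios within an embryo were tested by exact permutation, or for FOXJ3 with 100000 resamples within batches. The edgeR test was tried on simulated counts in which equal numbers of features rose and fell. That setting differs from the TBP data, where most calls were lower. Other software was scipy 1.17.1, pandas 2.3.3, numpy 2.4.6, matplotlib 3.10.9, R 4.3.3 and Python 3.11.15.

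Symbols came from gencode M21. The genes and lists were chosen with earlier results of these data known. Values per embryo are given for the 5 genes with the smallest p in each direction for TBP (3 for FOXJ3, 0 genes being above 0 for TBP), and for 16 genes named for their role, in the FOXJ3 experiment as medians where they do not head that order. Other genes of the set are named by role with their fold change. The values of 1 gene of the set are not reported here, and it stays in the counts.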

Additional observations from a re-analysis of the deposited data

Results flagged for a closer look

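In the TBP experiment 50 group values (20 genes and 5 ratios in LOF and CONTROL embryos) were examined for an embryo far from the other 8 of its group, and 4 were found. The FOXJ3 groups, of over 10 embryos, were not examined in this way. Chance flags about 1 in 20 groups. *Bdp1* stood at 3.14 scaled counts in LOF embryo 11, against 14.5 to 38.1 in the others. The log2 ratio of *Brf1* to *Brf2* was -4.95 in the same embryo, against -2.78 to -0.60. *Polr1b* stood at 130.3 scaled counts in CONTROL embryo 10, against 58.0 to 80.9, and *Polr3b* at 136 in CONTROL embryo 8, against 58.3 to 79.8. These embryos stood at the end of their group for other genes too. CONTROL embryo 8 was highest for *Polr1d* (1342), *Polr3k* (959) and *Ubtf* (436), and LOF embryo 11 lowest for *Polr2b* (7.48) and *Ubtf* (12.3). By contrast, *Polr1b* in CONTROL embryo 8 (74.2) and *Polr3b* in LOF embryo 11 (6.76) stood at the group medians.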

How the results depend on the processing

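With spike-in scaling the count of lower genes upon TBP LOF was 32 or 33 of 41 under every other alternative, leaving out single embryos included, and it was 25 under TMM and under DESeq2 size factors. Under each of these 2 scalings 1 gene was higher and 7 turned from below to above 0: *Gtf3a* (0.65 under TMM, 0.68 under DESeq2 size factors), *Maf1* (0.16, 0.20), *Polr2a* (0.24, 0.26), *Polr2c* (0.57, 0.61), *Polr2j* (0.39, 0.41), *Polr3e* (0.32, 0.33) and *Polr3f* (0.014, 0.051). Among all genes, 2382 were lower and 2438 higher under TMM, against 5497 and 258 with spike-ins. The DESeq2 test called 33 genes of the set lower, and 5658 of all 18447 genes tested. With filterByExpr, which dropped *Polr3gl*, 33 of 40 were lower, and 4056 of all 7699 genes tested.

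Upon FOXJ3 LOF 0 of the 41 passed under any alternative, and in all genes 0 to 4 were called. Uncalled estimates of the named genes that changed sign were *Brf2* (0.041) and *Rrn3* (0.15) with spike-ins, *Gtf3a* (-0.013) and *Rrn3* (0.0090) with all embryos, *Maf1* (0.060) in batch 1, *Gtf3a* (-0.16), *Polr2b* (-0.011), *Polr3gl* (-0.027), *Rrn3* (0.034) and *Ubtf* (-0.11) in batch 2, and *Polr3g* (-0.026), *Polr3gl* (-0.0056) and *Rrn3* (0.045) with the Trim21 covariate. Without single embryos, *Gtf3a* ran from -0.033 to 0.086 and *Polr3g* from -0.00069 to 0.16. Without CONTROL embryos 2 and 3 of batch 1, an alternative chosen after seeing the data, *Gtf3a* (-0.048), *Polr1a* (-0.063) and *Ubtf* (-0.010) changed sign, and so did the ratio of *Polr1a* to *Polr1b* (-0.11). The causes were not tested.

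Replicate numbers showed no clear pairing of embryos, which so few pairs cannot exclude. Deviations of like-numbered embryos correlated between -0.05 and 0.14 over 7 pairs for TBP and between -0.21 and 0.27 over 12 for FOXJ3. Of these, 0 of 7 and 3 of 12 pairs correlated best with their own number, and no chance level was taken. With a replicate block 32 genes of the set were lower for TBP, *Brf1* not passing (-0.81, adjusted p = 0.222, edgeR), and 0 passed for FOXJ3, where *Polr1b* (-0.10) and *Polr3gl* (-0.049) changed sign. Of all 18702 genes tested in that fit for TBP 4493 were lower.

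The ratios of *Polr2a* to *Polr2b* and *Polr3a* to *Polr3b* upon TBP LOF passed in every alternative. Leaving out 1 embryo, that of *Polr1a* to *Polr1b* ran from 0.78 to 1.21 and passed without LOF embryo 1 (1.21, adjusted p = 0.0163, exact permutation test) or LOF embryo 9 (1.16, adjusted p = 0.0392, exact permutation test), that of *Brf1* to *Brf2* ran from 0.27 to 0.90, and that of *Polr3g* to *Polr3gl* ran from -2.09 to -1.28 and passed without CONTROL embryo 2 (-2.09, adjusted p = 0.0361, exact permutation test). For FOXJ3, *Brf1* over *Brf2* ran from 0.46 to 0.80 and passed without CONTROL embryo 3 of batch 1 (0.80, adjusted p = 0.03, permutation test) and in batch 2 alone (1.00, adjusted p = 0.0253, exact permutation test), *Polr2a* over *Polr2b* ran from -0.055 to 0.087, *Polr3g* over *Polr3gl* from -0.31 to 0.17, *Polr1a* over *Polr1b* from 0.065 to 0.34 and *Polr3a* over *Polr3b* from -0.32 to -0.088, and *Polr1a* over *Polr1b* turned to -0.19 in batch 2 and *Polr2a* over *Polr2b* to -0.057 in batch 1. Fits without 1 embryo used 2000 resamples for FOXJ3. Depth limits *Polr3gl*, *Brf1* and *Maf1* most, with 56, 331 and 276 reads in the TBP experiment.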
